A study of Mus musculus with 24 samples.

Results

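Naive mouse embryonic stem cells without the MLL3 and MLL4 proteins were set directly against naive cells that carry both in a catalytic-dead form, across all genes of the deposited expression table. The comparison rests on 6 of the 24 labelled samples, 3 of MLL3KO_MLL4KO cells (the knockout line) and 3 of MLL3CD_MLL4CD cells (the catalytic-dead line). The table holds 16617 genes, and 11451 of them could be tested with a value for each library. The groups were set by their labels and the comparison covers every gene, while the gene lists were chosen with earlier results of these data known. RNA was captured at the poly(A) end with the QuantSeq 3' kit, so each read marks the last part of a transcript.

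Knockout cells carry the alleles MLL3KO and MLL4KO. Catalytic-dead cells carry MLL3CD and MLL4CD, with CD read as catalytic-dead, an abbreviation that the labels do not spell out. Cells labelled MLL3KO_MLL4fl (the floxed line) lack MLL3 as the knockout cells do, and keep an MLL4 gene marked by recombination sites. Wild-type and catalytic-dead samples are labelled as the R1 embryonic stem cell line, while knockout and floxed samples have no line label and the labels name no clones. Knockout and catalytic-dead cells may therefore differ in more than the state of the 2 proteins, and naive floxed against naive wild-type cells, 3 labelled samples each, give the only measure of differences between lines that uses other libraries. Formative samples of the knockout and catalytic-dead lines, 3 labelled of each and collected 63 h after LIF2i withdrawal, give the same comparison in a second state. Replicates were cultured and prepared independently per the series' design text.

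The genes Kmt2c and Kmt2d encode MLL3 and MLL4, a pair of large histone methyltransferases that place monomethyl marks on lysine 4 of histone H3 at enhancers. Their C-terminal SET domain carries the enzymatic activity, and the rest of each protein binds partners such as the histone demethylase UTX and takes part in bringing coactivators to enhancers. Cells with a catalytic-dead form lose the activity and can keep the protein, whereas knockout cells lose both, so the direct comparison addresses what the protein does besides methylation. Naive embryonic stem cells stand for the early epiblast, and formative cells for the epiblast about to respond to lineage signals.

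Promoters of 4 genes that the results below turn on are shown, taken from RefSeq (build GRCm38.p6), from 250 bases before to 50 bases after the gene's start, 5' to 3' on the gene's strand, with every CG in capitals. CG-rich promoters are the usual sites of trimethylated lysine 4, so the count of CG (the letters CG, the same on both strands) is given as a description. Tex13b, at chrX:140813384-140813683 on the minus strand, is the gene furthest above the catalytic-dead level among tested genes of at least 10 CPM.
Tex13b: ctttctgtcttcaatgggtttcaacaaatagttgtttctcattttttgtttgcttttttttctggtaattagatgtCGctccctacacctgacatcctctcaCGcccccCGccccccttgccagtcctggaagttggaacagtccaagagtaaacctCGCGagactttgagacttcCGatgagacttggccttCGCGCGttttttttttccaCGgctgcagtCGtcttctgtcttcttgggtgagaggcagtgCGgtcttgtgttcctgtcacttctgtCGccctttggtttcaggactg
Hoxa9, at chr6:52227321-52227620 on the minus strand, had the largest difference of the Hox genes.
Hoxa9: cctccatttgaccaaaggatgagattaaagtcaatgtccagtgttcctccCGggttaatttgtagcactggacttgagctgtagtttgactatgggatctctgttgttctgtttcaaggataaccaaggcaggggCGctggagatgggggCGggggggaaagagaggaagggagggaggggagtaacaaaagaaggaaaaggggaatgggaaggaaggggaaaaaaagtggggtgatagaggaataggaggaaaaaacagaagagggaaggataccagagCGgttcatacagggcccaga
Dazl, at chr17:50293571-50293870 on the minus strand, led the germline genes that were lower.
Dazl: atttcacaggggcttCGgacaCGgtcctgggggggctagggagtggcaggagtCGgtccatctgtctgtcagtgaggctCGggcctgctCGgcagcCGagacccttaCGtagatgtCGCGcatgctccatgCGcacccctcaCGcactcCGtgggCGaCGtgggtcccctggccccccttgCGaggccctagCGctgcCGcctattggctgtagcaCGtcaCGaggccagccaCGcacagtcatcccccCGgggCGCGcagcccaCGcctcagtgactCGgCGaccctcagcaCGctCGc
Zscan4c, at chr7:11005495-11005794 on the plus strand, is a gene of the 2-cell-like group.
Zscan4c: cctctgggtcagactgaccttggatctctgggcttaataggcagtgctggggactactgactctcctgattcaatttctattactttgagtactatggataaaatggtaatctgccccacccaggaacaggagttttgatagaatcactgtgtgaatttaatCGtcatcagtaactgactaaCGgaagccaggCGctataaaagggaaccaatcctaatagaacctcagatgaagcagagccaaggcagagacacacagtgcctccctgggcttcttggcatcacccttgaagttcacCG
Tex13b has 13 CG in this window, and 38.5% of the 27025 promoters in the RefSeq table have at least as many. Dazl has 28, reached by 14% of promoters. Hoxa9 and Zscan4c have 4 each, reached by 68.1%. Over all calls described below, genes higher in knockout cells had a median of 17 CG (509 promoters matched), genes lower in knockout cells also had 17 (996 promoters), and tested genes past neither side had 19 (5679 promoters). The share of promoters with at least 10 CG was 72.1% for higher genes, 70.7% for lower genes and 75.9% for the others.

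Library values were recovered from the deposited group means, as described under the processing. The 3 knockout libraries held 15425959, 11267695 and 8080680 counts and the 3 catalytic-dead libraries 8945300, 6572227 and 6095600 counts, named a, b and c by falling depth. None of these 6 libraries appears in another column of the table. The naive wild-type column held 2 libraries, and the formative knockout column shared 1 library with the formative catalytic-dead column, which was left out of the formative knockout group. Across 4681 genes with a value in every naive library, Pearson correlations of log2 values were 0.929 to 0.931 among knockout libraries, 0.886 to 0.926 among catalytic-dead libraries and 0.623 to 0.672 between the lines, with genes not being independent replicates. Naive markers were present in both lines: Esrrb averaged 209 CPM in knockout and 163 CPM in catalytic-dead cells, Tfcp2l1 577 and 526 CPM, Sox2 223 and 161 CPM. Klf4 averaged 667 and 272 CPM and Klf2 321 and 299 CPM. Zfp42, at 117 and 177 CPM, and Nanog, at 557 and 604 CPM, had lower means in knockout cells. Pou5f1 was counted at 5.62 CPM in knockout and 8.83 CPM in catalytic-dead cells and at 9.36 and 9.54 CPM in floxed and wild-type cells, far below the other naive markers in every line. Of 4 formative markers, Fgf5 averaged 0.787 CPM in knockout and 1.0 CPM in catalytic-dead cells, Pou3f1 12.7 and 8.18 CPM, Otx2 32.4 and 65.9 CPM and Dnmt3b 36.5 and 86.9 CPM. Markers of other cell types summed to 1.24 to 3.11 CPM in knockout and 2.68 to 3.94 CPM in catalytic-dead libraries for fibroblast feeders (4 of 6 markers in the table) and 2.75 to 3.22 against 2.24 to 3.28 CPM for mesoderm (2 of 3). Primitive endoderm markers (3 of 6) summed to 25.3 to 27.7 CPM in knockout and 48.6 to 55.1 CPM in catalytic-dead libraries, nearly all of it Dab2. Trophoblast markers (4 of 5) summed to 10.9 to 18.1 against 10.2 to 13.5 CPM, and neuroectoderm markers (2 of 2) to 19.7 to 23.8 against 9.84 to 12.8 CPM, nearly all of it Sox1. In these bulk samples, fewer cells of a type and less RNA per cell cannot be told apart.

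Of the 2 target genes, Kmt2d was lower in knockout than in catalytic-dead cells and Kmt2c, untested, had a lower mean. Kmt2c (chr5:25271798-25498783, minus strand, GRCm38) had 19.9, 22.8 and 22.8 CPM in the knockout libraries, with a deposited mean of 67.4 CPM in catalytic-dead cells, where library values could not be recovered and no test was made. Floxed cells averaged 23.4 CPM and wild-type cells 48.8 CPM, so both lines labelled MLL3KO stood below both lines that keep MLL3. Kmt2d (chr15:98831669-98871204, minus strand) had 19.1, 17.8 and 15.3 CPM in knockout libraries and 28.6, 27.5 and 26.1 CPM in catalytic-dead libraries. The groups did not overlap, and the log2 difference was -0.65 (SE 0.187, adjusted p = 0.0118). Without knockout library c it was -0.56 and no longer past the threshold (adjusted p = 0.0636). In formative cells Kmt2d averaged 19.9 CPM in knockout and 20.3 CPM in catalytic-dead cells (-0.01, adjusted p = 0.975). That knockout average is the deposited mean, which includes the library shared with the formative catalytic-dead column, while the tested difference leaves this library out of the knockout group. Tags from the transcript's end show neither the deleted exons nor the catalytic change, so they check the labels only in part.

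In naive cells, 2210 of the 11451 tested genes (19.3%) differed between the lines at an adjusted p under 0.05. Among tested genes, more were lower than higher in knockout cells. Knockout cells were higher for 715 genes (6.24%) and lower for 1495 (13.1%). At least 2-fold differences made up 529 of the higher and 1088 of the lower calls. In 700 of the 715 higher and 1467 of the 1495 lower calls the 3 knockout libraries did not overlap the 3 catalytic-dead ones. The calls were made on these same libraries, so this separation is a description, and its share over all tested genes was not counted. Differences are log2 values, knockout minus catalytic-dead, of CPM with a small count added, so they understate the change of genes near 0. The median over all genes was -0.08. It was -0.15 over tested genes and 0.006 over those that could not be tested. Counts were recovered for 11710 genes in knockout and 12825 in catalytic-dead cells, so recovery left out more genes on the knockout side. The split of calls into higher and lower thus holds for tested genes only. Among the 5166 genes that could not be tested, most of them abundant (median 77.7 CPM in knockout and 80.4 CPM in catalytic-dead cells), 201 (3.89%) had deposited means 2-fold or more above the catalytic-dead level and 238 (4.61%) 2-fold or more below it.

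**Figure D1:**
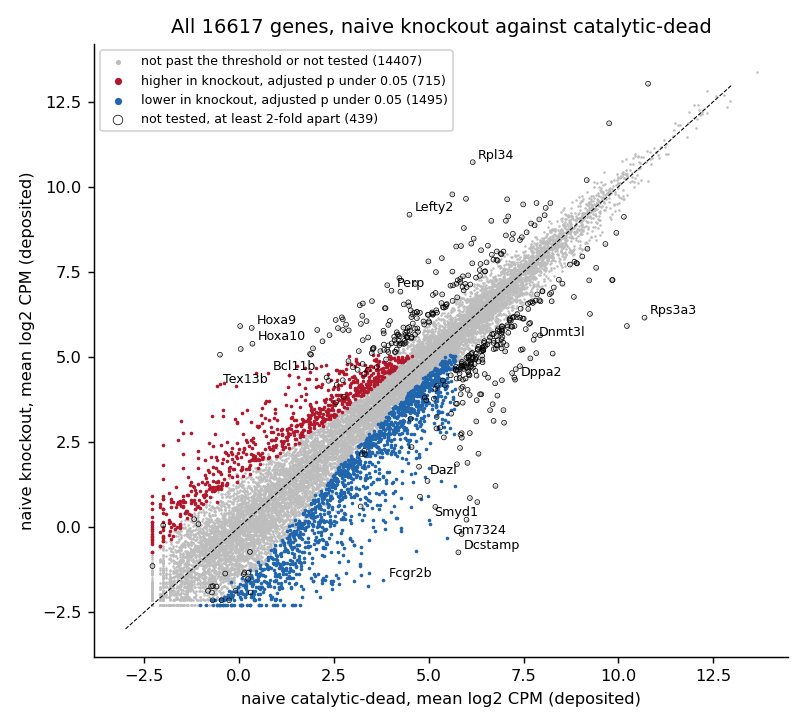
Mean log2 CPM of each gene in naive knockout cells (vertical axis) and naive catalytic-dead cells (horizontal axis), as deposited, with the dashed line at equal levels. Red and blue points are the 715 higher and 1495 lower calls, open circles are untested genes at least 2-fold apart, and the called genes thin out towards high levels, where library values could not be recovered.

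Among tested genes of at least 10 CPM without overlap between libraries, the 12 largest gains in knockout cells included Tex13b, Bcl11b, Padi4 and Slit2. Tex13b, an X-linked testis gene, had 15.1, 18.7 and 18.7 CPM in knockout libraries and 0.894, 0.304 and 0.328 CPM in catalytic-dead libraries. It was near 0 in every catalytic-dead library and differed by 4.72 (SE 0.498, adjusted p = 1.62e-08). Bcl11b, a zinc finger factor needed for T cell development, had 27.2, 21 and 20.3 CPM in knockout and 1.34, 1.22 and 1.97 CPM in catalytic-dead libraries, a log2 difference of 3.76 (SE 0.38, adjusted p = 7.95e-09). All 3 knockout libraries stood far above the highest catalytic-dead one. Padi4, which turns arginines of histones into citrulline, had 20.9, 18.8 and 26.6 CPM in knockout and 1.90, 2.89 and 2.13 CPM in catalytic-dead libraries, a log2 difference of 3.16 (SE 0.332, adjusted p = 1.57e-08). Slit2, a secreted axon guidance cue, had 27.3, 29.9 and 22.2 CPM in knockout and 3.35, 2.28 and 2.46 CPM in catalytic-dead libraries, again without overlap. The other 8 were AI662270 (4.70), the mitochondrial carrier Slc25a48 (4.65), the oocyte NLRP family gene Nlrp4c (4.25), the lincRNA 1700031P21Rik (4.09), the oocyte homeobox gene Obox6 (3.87), the cilium assembly gene Ccdc40 (3.28), the X-linked zinc finger gene Zfp711 (3.24) and the epoxide hydrolase Ephx1 (3.16). Among untested genes, Prr15 led by its deposited means, with 60 CPM in knockout and 1.02 CPM in catalytic-dead cells (5.88), followed by the keratinocyte gene Krtdap (5.57), Hoxa9 (5.52), the keratin gene Krt17 (5.19) and Hoxa10 (5.04). Of the genes named here, 1700031P21Rik, Slc25a48 and Krt17 were also called higher in floxed than in wild-type cells, and Nlrp4c was called lower there. With the spread from those groups alone, that call was lost for Slc25a48 (1.65), Krt17 (1.58) and Nlrp4c (-1.73).

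The 12 largest losses included Fcgr2b, Smyd1, Calml4 and Khdc3, and the other 8 were gene models or pseudogenes. Fcgr2b, the inhibitory Fc receptor of B cells and macrophages, had 0.194, 0.0887 and 0.124 CPM in knockout libraries and 16.2, 11.7 and 13.3 CPM in catalytic-dead libraries. It was at the edge of detection in all 3 knockout libraries, with a log2 difference of -5.36 (SE 0.452, adjusted p = 2.71e-10). Smyd1, a histone methyltransferase of heart and skeletal muscle, had 0.583, 2.22 and 0.619 CPM in knockout and 28.2, 37 and 31 CPM in catalytic-dead libraries, a difference of -4.78 (SE 0.414, adjusted p = 3.91e-10). Calml4, a calmodulin-like protein of the brush border, had 0.519, 0.621 and 1.11 CPM in knockout and 19.2, 21 and 16.7 CPM in catalytic-dead libraries, a difference of -4.37 (SE 0.442, adjusted p = 7.95e-09). In each of these the highest knockout library was far below the lowest catalytic-dead one. Khdc3, part of a maternal complex of the oocyte, fell by 4.30. Those 8 were Gm7324 (-5.79), Gm28438 (-5.36), Gm48168 (-5.15), Gm10522 (-4.95), Gm45319 (-4.78), Gm21761 (-4.49), Gm8994 (-4.07) and Pdcd5-ps (-3.97), for which reads of near-identical copies may be split. Khdc3 and all 8 were also past the threshold between floxed and wild-type cells. With the spread from those groups alone, that call was lost for Khdc3 (-2.22) and Gm10522 (-1.56). Untested genes were led by Dcstamp, a gene of osteoclast fusion, with 0.595 CPM in knockout and 55 CPM in catalytic-dead cells (-6.53), then Dpys of pyrimidine breakdown (-6.08), Gm525 (-5.78), Gm364 (-5.55) and Apobec2, a muscle member of the cytidine deaminase family (-5.55). All 5 were also called lower in floxed than in wild-type cells, from -4.16 for Dpys to -1.78 for Gm364, with Dcstamp at 0.851 CPM in floxed and 11.5 CPM in wild-type cells.

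**Figure D2:**
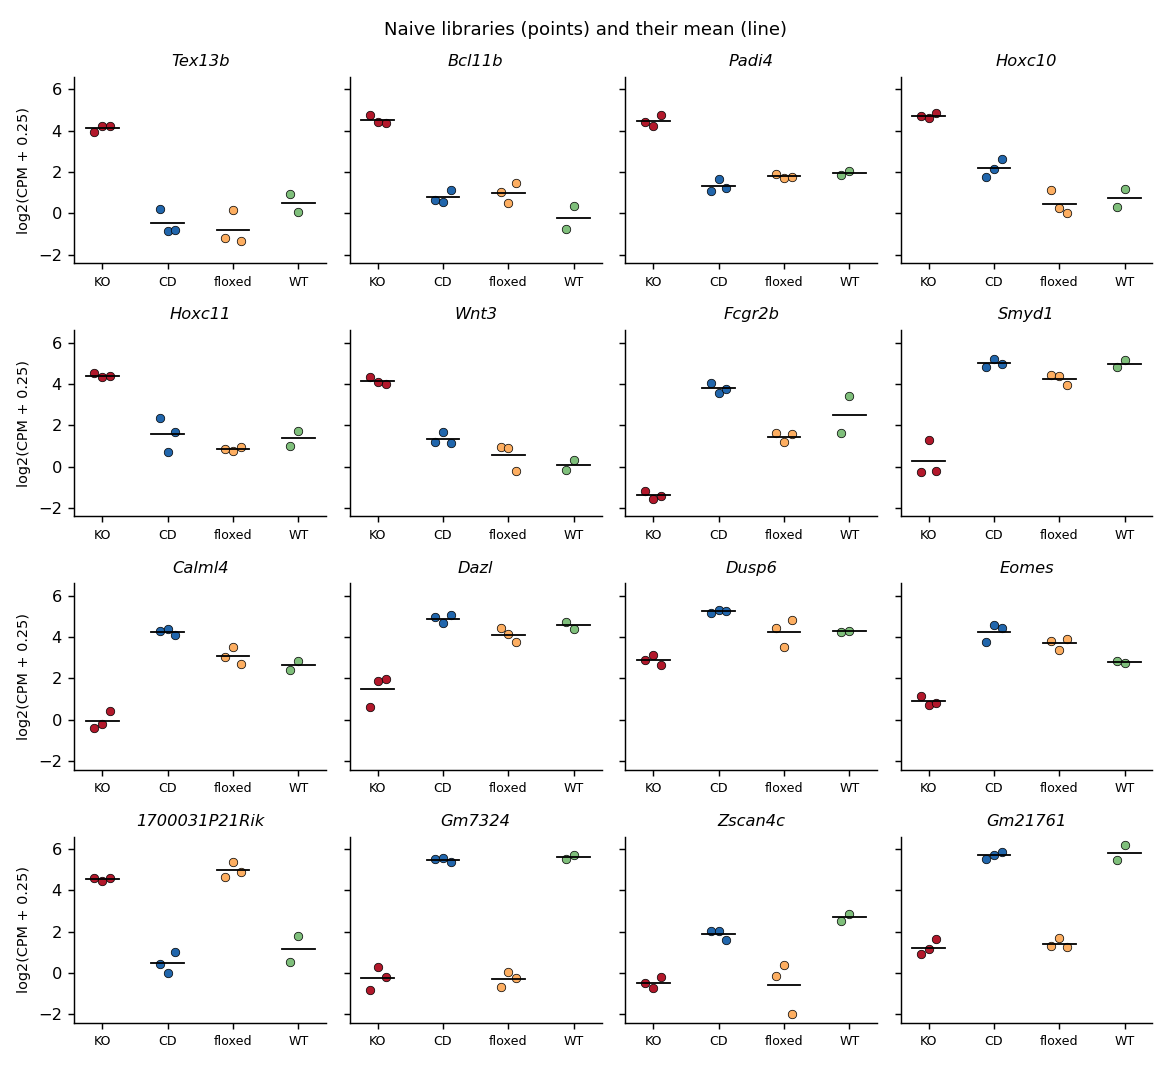
Levels of 16 genes in each naive library as log2(CPM + 0.25) (points) with the group mean (line), for knockout (KO), catalytic-dead (CD), floxed and wild-type (WT) cells. In Tex13b, Bcl11b and Padi4 the knockout libraries stand above the other 3 lines, in Smyd1, Calml4 and Dazl below them, and in 1700031P21Rik, Gm7324, Zscan4c and Gm21761 knockout and floxed libraries lie together, apart from catalytic-dead and wild-type ones.

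Hox genes, the homeobox genes that pattern the body axis, included several that were higher in knockout cells, most of them from the posterior part of the HoxA and HoxC clusters. Of the 5 tested HoxA genes 2 were called higher and none lower, against 6.24% and 13.1% of all tested genes, and both untested ones were above 2-fold by their means. The median over the 7 HoxA genes in the table was 1.84. In the HoxB, HoxC and HoxD clusters 7 of 18 tested genes were called higher and none lower, with a median of 0.69 over 19 genes. Hoxc11 had 22.7, 19.9 and 20.3 CPM in knockout and 4.81, 1.37 and 2.95 CPM in catalytic-dead libraries, a difference of 2.85 (SE 0.374, adjusted p = 7.36e-07). Hoxc10 had 25.9, 24.3 and 28.7 CPM in knockout and 3.13, 4.26 and 5.91 CPM in catalytic-dead libraries, a difference of 2.56 (SE 0.279, adjusted p = 3.37e-08). Neither gene had a knockout library near the catalytic-dead range. Hoxc6 differed by 2.14, Hoxa11 by 2.14, Hoxb9 by 1.95 and Hoxa7 by 1.84, all past the threshold. All HoxA genes lie on chromosome 6, which was shifted towards catalytic-dead cells as a whole (described below), and leaving out single libraries left 2 higher HoxA calls and 5 to 8 higher calls in the other clusters, with 1 lower HoxA call without knockout library a. Hoxa9 averaged 57.7 CPM in knockout cells by its deposited mean and had 0.783, 2.13 and 0.656 CPM in catalytic-dead libraries, and Hoxa10 averaged 41.8 CPM and had 0.894, 0.913 and 1.48 CPM. The more anterior genes Hoxa2 and Hoxa5 did not pass the test, with differences of -1.36 for Hoxa2 and 0.03 for Hoxa5. None of the 5 HoxD genes in the table was called, with differences from -0.96 to 0.73. Floxed and wild-type cells had Hoxa9 at 0.511 and 0.804 CPM and Hoxc10 at 1.34 and 1.63 CPM, close to the catalytic-dead level of Hoxa9 and below that of Hoxc10.

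Nr0b1, Gbx2 and Tcl1 were the naive pluripotency genes called lower in knockout cells, and the core naive factors were too abundant to test. Of 5 tested naive pluripotency genes 3 were lower and 1 higher, against 13.1% and 6.24% of all tested genes (median over 18 genes -0.17), and the higher call was lost whichever single library was left out. Nr0b1, an orphan nuclear receptor of the naive network, had 2.72, 4.70 and 6.31 CPM in knockout and 17.9, 14.6 and 15.1 CPM in catalytic-dead libraries (-1.82, SE 0.332, adjusted p = 0.000137). The homeobox gene Gbx2 differed by -1.67 and the AKT coactivator Tcl1 by -1.03. Knockout libraries of all 3 genes lay below every catalytic-dead library. Untested by library, Klf4 averaged 667 CPM in knockout and 272 CPM in catalytic-dead cells, Nanog (chosen after its values were seen) 557 and 604 CPM, and Dppa5a 132 and 315 CPM. The Klf4 mean was also higher in floxed than in wild-type cells, at 485 and 185 CPM, while Nanog averaged 437 and 420 CPM there. Genes shared by the pluripotent states were lower by their deposited means in 8 of 10 cases (median -0.59). Of all genes of more than 5 CPM, 80.8% on chromosomes 6, 14 and 17 and 51.4% of the others had lower means in knockout cells. Among the shared genes Dppa2, a chromatin factor at CG-rich promoters, had 22.3, 19.3 and 18.3 CPM in knockout libraries against a mean of 155 CPM in catalytic-dead cells. Utf1 had 9.72, 9.23 and 10.6 CPM against a mean of 48.2 CPM.

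Several formative genes were lower in naive knockout cells. Of 13 tested formative genes 5 were lower and none higher, against 13.1% lower and 6.24% higher of all tested genes. The median over 16 genes was -0.79. Sox3, a SOX factor of the epiblast and neural plate, had 2.01, 1.86 and 1.73 CPM in knockout and 14.3, 16.7 and 10.5 CPM in catalytic-dead libraries (-2.74, SE 0.363, adjusted p = 4.03e-06). Tcf15, a basic helix-loop-helix factor of cells leaving the naive state, had 12.3, 12.5 and 12.6 CPM in knockout and 41, 49.5 and 50.7 CPM in catalytic-dead libraries (-1.89, SE 0.185, adjusted p = 2.54e-08). Foxd3, a forkhead factor of the epiblast, differed by -1.67. The groups were apart for all 3 genes. Otx2, a homeobox factor of the formative epiblast, had 31.1, 32.1 and 33.3 CPM in knockout libraries against a mean of 65.9 CPM in catalytic-dead cells, while floxed and wild-type cells averaged 8.22 and 12.2 CPM. Both mutant lines stood above floxed and wild-type cells for Otx2. Dnmt3b averaged 36.5 CPM in knockout and 86.9 CPM in catalytic-dead cells.

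Several targets and feedback inhibitors of FGF signalling were lower in naive knockout cells. FGF acts through ERK and switches on these inhibitors and ETS factors of the PEA3 class. In this group 15 of the 16 genes in the table were below 0, with a median of -0.91. Lower means were found for 51.4% of all genes of more than 5 CPM outside chromosomes 6, 14 and 17, and for 80.8% on them. Of 15 tested genes of the group 6 were called lower and none higher, against 13.1% and 6.24% of all tested genes. Dusp6, the phosphatase that switches ERK off, had 7.20, 8.52 and 6.06 CPM in knockout and 36, 39.9 and 37.6 CPM in catalytic-dead libraries (-2.36, SE 0.262, adjusted p = 2.81e-07). Etv4 had 8.04, 12.4 and 11.5 CPM in knockout and 37.7, 39.3 and 37.1 CPM in catalytic-dead libraries (-1.84, SE 0.193, adjusted p = 7.22e-08). Every catalytic-dead library stood well above the highest knockout library for both genes. Etv1 differed by -1.52 and the feedback inhibitor Spry4 by -2.39, both past the threshold, and the untested Etv5 averaged 66.8 CPM in knockout and 143 CPM in catalytic-dead cells. Among FGF ligands and receptors 1 of 12 tested genes was higher and 1 lower (median -0.30). The lower one was the receptor gene Fgfr2, with 1.75, 1.42 and 0.99 CPM in knockout and 5.03, 5.17 and 4.76 CPM in catalytic-dead libraries (-1.73, adjusted p = 0.000718). Fgf4, the main ligand of these cells, was untested and averaged 184 CPM in knockout and 189 CPM in catalytic-dead cells.

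Lineage genes were called in both directions. Eomes, a T-box factor of the primitive streak and trophoblast, had 1.94, 1.42 and 1.49 CPM in knockout and 13.2, 23.9 and 21.5 CPM in catalytic-dead libraries, a difference of -3.40 (SE 0.396, adjusted p = 9.73e-08). Floxed and wild-type cells averaged 13.1 and 6.83 CPM, so the knockout level was the lowest of the 4 lines. Of 11 tested mesendoderm genes 3 were higher and 1 lower (median 0.14), and of 9 neuroectoderm genes 3 and 0 (0.61). Of 10 primitive endoderm genes 3 were higher and 1 lower (0.17), and of 13 trophoblast genes 1 and 2 (0.59). Of all tested genes 6.24% were higher and 13.1% lower. Higher calls in the mesendoderm, neuroectoderm and primitive endoderm lists thus exceeded the share of all tested genes, on few genes. The neural factor Sox1 had 23, 18.7 and 21.3 CPM in knockout and 9.73, 12 and 10 CPM in catalytic-dead libraries (0.98, adjusted p = 0.000589). It was also called higher in floxed cells, at 11.1 CPM, than in wild-type cells, at 5.46 CPM (1.03, adjusted p = 0.0147). Otx1 differed by 1.63. The trophoblast factor Tead4 was lower (-1.6). Dab2, an endocytic adaptor that marks primitive endoderm, had 22.8, 25.6 and 25.7 CPM in knockout and 46.6, 49.1 and 52.7 CPM in catalytic-dead libraries (-1.0, adjusted p = 0.000136), and both lines were above floxed (2.53 CPM) and wild-type cells (3.45 CPM). Col4a2, a basement membrane collagen, went the other way, with 13.7, 10 and 17.2 CPM in knockout and 5.48, 4.56 and 5.09 CPM in catalytic-dead libraries (1.37). Among fibroblast or feeder genes 1 of 8 tested was higher and 2 lower, and the untested Acta2 averaged 95.9 CPM in knockout and 40.4 CPM in catalytic-dead cells against 8.30 CPM in floxed and 5.67 CPM in wild-type cells.

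Wnt pathway genes changed in both directions, with ligand and target genes on either side. Of 17 tested genes 5 were higher and 3 lower (median 0.07), against 6.24% and 13.1% of all tested genes. Wnt3, a ligand of the primitive streak, had 19.8, 16.6 and 15.6 CPM in knockout and 2.01, 2.89 and 1.97 CPM in catalytic-dead libraries (2.82, SE 0.398, adjusted p = 2.49e-06). Notum, a secreted enzyme that inactivates Wnt ligands, had 9.40, 12.2 and 11.8 CPM in knockout and 0.671, 2.13 and 1.48 CPM in catalytic-dead libraries (2.90, SE 0.504, adjusted p = 6.05e-05). For both genes the lowest knockout library was several-fold above the highest catalytic-dead one. The receptor gene Lgr5 (2.66) was also higher, and so was Sp5 (0.90), a Wnt target counted in the mesendoderm list. The homeobox target Cdx1 was lower, with 8.69, 7.63 and 6.44 CPM in knockout and 33.1, 37.6 and 42.3 CPM in catalytic-dead libraries (-2.28, SE 0.247, adjusted p = 2.94e-08). Of 8 tested Nodal and BMP genes 2 were higher and 2 lower. The Nodal antagonist Lefty1 had 19.4, 24.2 and 28.6 CPM in knockout and 7.27, 5.02 and 7.05 CPM in catalytic-dead libraries (1.87, SE 0.275, adjusted p = 1.68e-05). Lefty2 averaged 581 CPM in knockout cells and had 29, 21 and 18.2 CPM in catalytic-dead libraries, with 151 CPM in floxed and 89.6 CPM in wild-type cells. The Activin subunit gene Inhbb was lower (-2.32).

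Germline genes were called in both directions. Of 21 tested genes 9 were lower and 3 higher in knockout cells, against 13.1% and 6.24% of all tested genes, where 67.6% of the calls were lower. The median over 23 germline genes was -0.47. Dazl, an RNA-binding protein of germ cells, had 1.30, 3.37 and 3.71 CPM in knockout and 30.9, 25.4 and 33 CPM in catalytic-dead libraries (-3.43, SE 0.305, adjusted p = 7.03e-10). Sycp3 of the synaptonemal complex had 0.843, 0.266 and 0.371 CPM in knockout and 3.69, 10.3 and 7.22 CPM in catalytic-dead libraries (-3.36, SE 0.77, adjusted p = 0.00164). Both were lower in every knockout library, while Tex13b and Nlrp4c, described above, are germline genes that were higher. By deposited means the tubulin gene Tuba3a was also low (-3.15) and Piwil2, which loads small RNAs against transposons, was high. Piwil2 averaged 61.8 CPM in knockout cells and had 9.95, 10.2 and 3.12 CPM in catalytic-dead libraries. Tuba3a was also called lower and Piwil2 higher in floxed than in wild-type cells. With the spread from those groups alone, both lost that call (-0.98 for Tuba3a and 2.38 for Piwil2). Genes of the 2-cell-like state, a rare state of stem cell cultures, were lower: 7 of 9 tested genes were called lower and none higher, with a median of -2.32 (6 or 7 when single libraries were left out). Zscan4c had 0.454, 0.355 and 0.619 CPM in knockout and 3.8, 3.8 and 2.79 CPM in catalytic-dead libraries (-2.44, SE 0.558, adjusted p = 0.00162). Gm8300 differed by -3.44, Zscan4d by -2.66 and Tcstv3 by -2.54. These are members of multigene families whose reads may be split among copies, and floxed cells stood as far below wild-type cells: Zscan4c averaged 0.605 CPM in floxed and 6.44 CPM in wild-type cells, and the median of the 9 genes between those lines was -2.82.

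Genes of DNA methylation tended to be low by their means, and imprinted genes differed singly. Dnmt3a, a de novo DNA methyltransferase, had 23, 16.2 and 20.9 CPM in knockout and 33.6, 44.6 and 41.2 CPM in catalytic-dead libraries (-0.99, SE 0.187, adjusted p = 0.000474), the only call among 4 tested genes of the group. Its cofactor Dnmt3l averaged 45.4 CPM in knockout and 218 CPM in catalytic-dead cells, and the methylcytosine dioxygenase Tet2 63.9 and 204 CPM. The knockout means were below those of floxed cells, where Dnmt3l averaged 864 CPM and Tet2 176 CPM. Of 12 tested imprinted genes 2 were higher and 2 lower (median 0.05), against 6.24% and 13.1% of all tested genes. Ndn, expressed from the paternal copy, had 7.91, 9.67 and 10.3 CPM in knockout and 1.90, 2.74 and 2.79 CPM in catalytic-dead libraries (1.83, adjusted p = 0.000322), and the growth restrainer Phlda2 differed by 1.22. Mest, also paternal, had 7.33, 5.41 and 5.20 CPM in knockout and 18, 23.7 and 20.3 CPM in catalytic-dead libraries (-1.76, adjusted p = 7.23e-06). The maternal RNAs of the Dlk1-Dio3 region, untested, were both low: Rian had 16.4, 12.6 and 15.5 CPM in knockout libraries against a mean of 81.8 CPM in catalytic-dead cells, and Mirg 17.4, 17.4 and 20.8 CPM against 108 CPM. H19 averaged 90.6 CPM in knockout cells and had 23.8, 22.1 and 20.7 CPM in catalytic-dead libraries.

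Few chromatin regulators could be tested, and the share called was near that of all tested genes for Polycomb. None of the 7 tested enhancer coactivators and remodellers was called in either direction (median over 20 genes -0.10), and among MLL and SET1 methyltransferases and partners Kmt2d was the only call of 3 tested (median over 18 genes -0.14). Of 13 tested Polycomb genes 1 was higher and 2 lower, against 6.24% and 13.1% of all tested genes, and 3 of 15 untested ones were at least 2-fold lower (median over 28 genes -0.24). Cbx8, a chromodomain subunit of the first Polycomb complex, had 16.9, 19.2 and 13.9 CPM in knockout and 8.16, 4.11 and 4.59 CPM in catalytic-dead libraries (1.58, SE 0.302, adjusted p = 0.000199). Subunits of the second complex were untested, Mtf2 (chosen after its values were seen) with 319 CPM in knockout and 809 CPM in catalytic-dead cells and Eed with 215 and 483 CPM.

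Growth and stress genes were mostly untested because of their level. Of 7 tested cell cycle regulators 1 was higher and 2 lower, against 6.24% and 13.1% of all tested genes. Ccnd2 (cyclin D2) had 11.7, 9.50 and 10.4 CPM in knockout and 29.5, 43.4 and 42.5 CPM in catalytic-dead libraries (-1.83, SE 0.216, adjusted p = 7.03e-07). Its paralogue Ccnd1 (cyclin D1) was untested and stood the other way, averaging 180 CPM in knockout cells with 36.8, 36.1 and 36.1 CPM in catalytic-dead libraries. Floxed and wild-type cells averaged 12.1 and 6.69 CPM of Ccnd2 and 123 and 95.6 CPM of Ccnd1. The inhibitor genes Cdkn2a and Cdkn1a averaged 157 and 575 CPM in knockout cells against 57.0 and 266 CPM in catalytic-dead cells. Of 18 genes of p53 and its targets 14 were above 0 (median 0.30, against -0.08 over all genes), though neither of the 2 tested genes was called. The membrane protein gene Perp of this list averaged 123 CPM in knockout cells and had 16.5, 15.4 and 16.1 CPM in catalytic-dead libraries. Among AP-1 genes none of 7 tested was called, and Fosl2 averaged 33.5 CPM in knockout cells with 2.79, 4.72 and 3.28 CPM in catalytic-dead libraries. In the interferon-type list 1 of 13 tested genes was lower, the RNA sensor gene Ddx58 (-0.90), while the untested Ifitm3 averaged 561 CPM in knockout and 137 CPM in catalytic-dead cells and Ifitm1 513 and 131 CPM. In glycolysis 1 of 6 tested genes was higher and 1 lower, the muscle enolase gene Eno3 (-1.36), and the kinase gene Pdk1 had 22.4, 24.1 and 23.9 CPM in knockout libraries against a mean of 65.9 CPM in catalytic-dead cells. Cholesterol genes had no call among 9 tested (median 0.17), and of the lists not described here none had more than 3 calls in a direction.

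**Figure D3:**
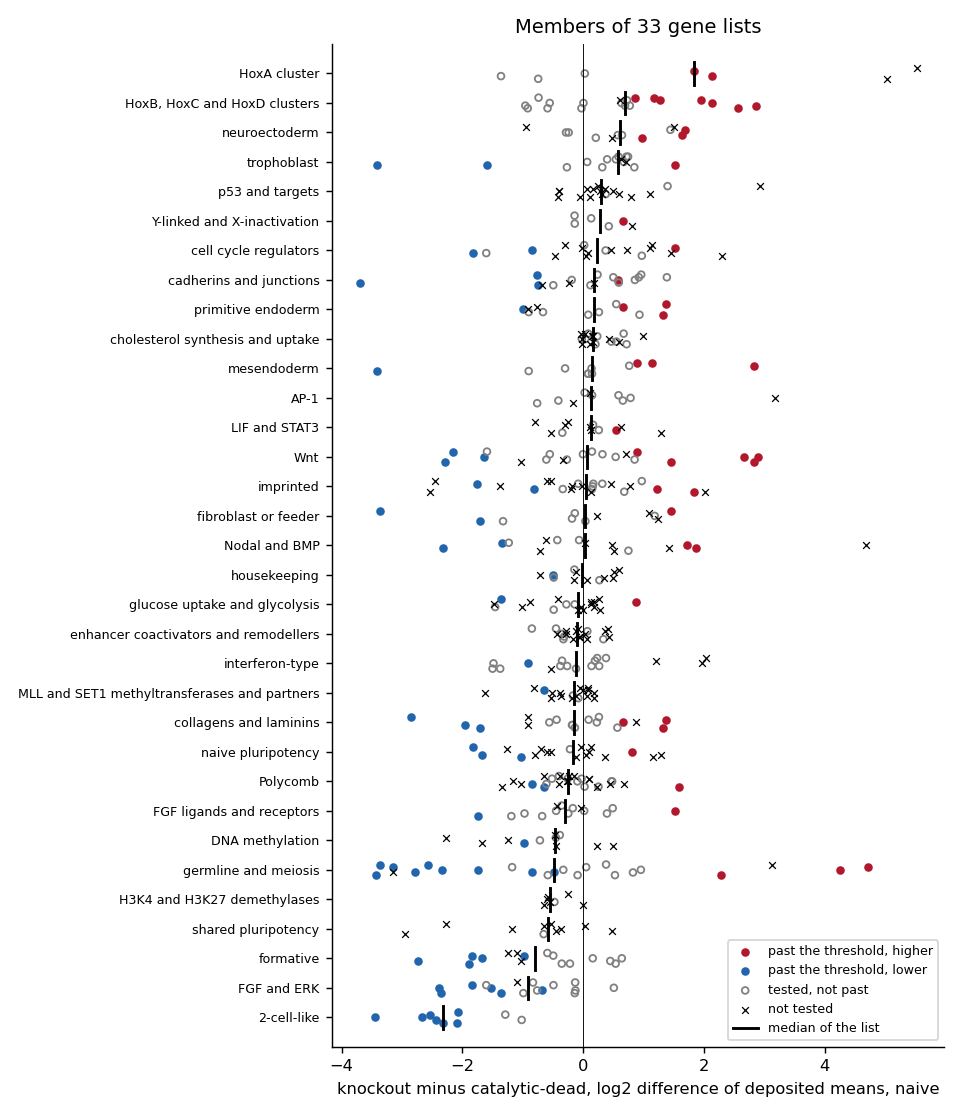
Log2 difference, knockout minus catalytic-dead in naive cells, of the members of 33 gene lists (points, 1 row per list), with the list median as a bar and lists ordered by it. Filled points passed the threshold, open points did not, and crosses had no library values. The HoxA cluster is at the top (median 1.84) and the 2-cell-like genes at the bottom (median -2.32).

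Differences between lines that do not depend on the loss of MLL4 can be seen in floxed against wild-type cells, which share no library with the direct comparison and also differ in MLL3. Between those lines 670 of 12183 tested genes (5.5%) passed the threshold, 253 higher (2.08%) and 417 lower (3.42%) in floxed cells, among them 5 of the 2-cell-like genes, all lower. Only 106 passed when the spread came from these 2 groups alone, and 371 without wild-type library a. Over the 11190 genes tested in both, 79 genes were higher in both comparisons, which is 11.2% of the 708 genes higher in knockout cells and 36.7% of the 215 higher in floxed cells. Lower in both were 178, or 12.9% of 1385 and 50% of 356. Opposite calls numbered 17 in each direction. Of the 11190 genes, 1.92% were called higher and 3.18% lower in floxed cells. The number called the same way, 257 in all, fell to 63 with the spread from each contrast alone and to 164 without wild-type library a.

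The lincRNA 1700031P21Rik shows this pattern among the higher genes. It had 23.8, 21.6 and 23.9 CPM in knockout, 1.12, 0.761 and 1.80 CPM in catalytic-dead, 24.5, 40.7 and 29.6 CPM in floxed and 1.19 and 3.17 CPM in wild-type libraries. Gm7324 shows it among the lower ones, with 0.324, 0.976 and 0.619 CPM in knockout, 44.9, 47 and 40.8 CPM in catalytic-dead, 0.373, 0.769 and 0.604 CPM in floxed and 45.2 and 51.4 CPM in wild-type libraries. Knockout and floxed libraries lie close together in both genes, overlapping for Gm7324, and stand apart from the R1 lines. Gm21761, Gm45319, Gm8994 and Pdcd5-ps had differences between -5.06 and -4.32 in floxed against wild-type cells. Abundant genes with the same pattern, picked after their values were seen, were Rpl34 (1694 CPM in knockout, 71.5 in catalytic-dead, 1641 in floxed and 59.6 in wild-type cells), Hspa8 (803, 63.2, 708 and 56.8 CPM) and the pseudogene Rps3a3 (71.3, 1654, 106 and 2797 CPM). Genes such as these have near-identical copies in the genome, so where their reads were assigned is uncertain.

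Each mutant line was then set against its own comparison line, and the 2 effects were subtracted. The difference of effects passed the threshold for 701 of 11190 genes (6.26%), 234 higher (2.09%) and 467 lower (4.17%) for knockout minus floxed. The 2 effects are unlike in what they change, since floxed cells already lack MLL3 and knockout against floxed is loss of MLL4, while catalytic-dead against wild type alters both proteins. With values centred per chromosome, an alternative chosen after seeing the data, the split was 264 higher and 328 lower, or 44.6% higher in place of 33.4%. Calls fell to 431 without wild-type library a and rose to 1094 without floxed library b. Of genes past the threshold in both tests and not between floxed and wild-type cells, the largest gains were in Tex13b, AI662270, the odorant receptor gene Olfr316 (4.44 directly), the basal keratin gene Krt14 (4.18), Mal of membrane rafts (4.03) and BC053393 (3.83). The difference of effects was 6.09 for Tex13b (adjusted p = 5.39e-06) and 3.31 for Padi4 (adjusted p = 2.91e-05). The largest losses were in Fcgr2b, Smyd1, Calml4, Rgs11, a regulator of G protein signals (-4.35 directly), Gm40977 (-4.28) and Trim63, a muscle ubiquitin ligase (-4.18). The difference of effects was no longer past the threshold for Krt14 without floxed library c (2.42) or with a prior count of 0.5 (3.47), for Olfr316 with a prior count of 0.5 (5.59) and for Rgs11 without wild-type library b (-2.83). Eomes had a difference of effects of -4.34 (adjusted p = 6.5e-07), with floxed libraries at 14, 10.2 and 15 CPM and wild-type libraries at 6.81 and 6.45 CPM. Among Hox genes it was 2.84 for Hoxc10 (adjusted p = 0.00215) and 3.37 for Hoxc11 (adjusted p = 0.0013). For Wnt3 it was 2.35 and not past the threshold (adjusted p = 0.067), and for Zscan4c 0.98 (adjusted p = 0.524).

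Over all direct calls, the medians were further from 0 in knockout against floxed cells than in catalytic-dead against wild-type cells. For the 715 higher genes the median was 0.89 for knockout minus floxed, -0.15 for catalytic-dead minus wild type and 0.23 for floxed minus wild type. For the 1495 lower genes these medians were -0.69, 0.42 and -0.18. The genes were chosen by knockout and catalytic-dead levels, so these medians are a description.

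**Figure D4:**
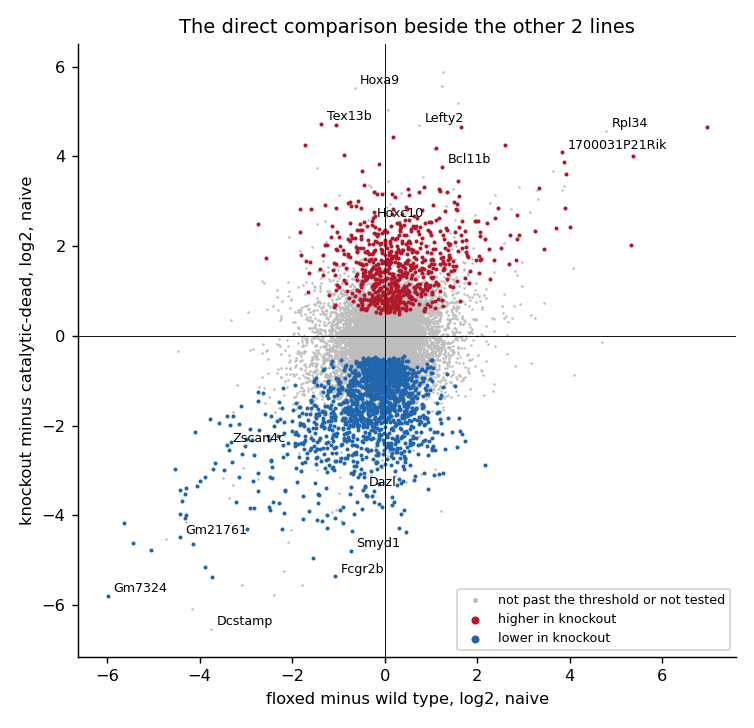
Each point is a gene, with the log2 difference of knockout and catalytic-dead cells (vertical axis) against that of floxed and wild-type cells (horizontal axis), both naive and from deposited means. Hoxa9, Tex13b, Bcl11b, Fcgr2b and Smyd1 lie much further from 0 on the vertical than on the horizontal axis, while Gm7324, Zscan4c, 1700031P21Rik and Rpl34 lie along the diagonal, differing in both pairs of lines.

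Differences were not spread evenly over the genome, a pattern sought after the values were seen. Over genes of more than 5 CPM the median difference was -0.53 on chromosome 6 (449 genes, 85.3% of them lower in knockout cells), -0.36 on chromosome 14 and -0.33 on chromosome 17, and between -0.07 and 0.09 on the other 17 chromosomes. On chromosome 6 catalytic-dead cells were the ones apart, with a median of 0.05 for knockout minus floxed and 0.60 for catalytic-dead minus wild type. On chromosomes 14 and 17 knockout cells were apart, with knockout minus floxed at -0.29 and -0.32 and catalytic-dead minus wild type at 0.19 and 0.06. Towards the end of chromosome 17 catalytic-dead cells were apart as well. There catalytic-dead minus wild type was 0.34 from 60 to 80 Mb and 0.31 from 80 to 100 Mb, with knockout minus floxed at -0.22 and -0.39. In stretches of 20 Mb with at least 20 genes the medians of knockout minus catalytic-dead ran from -0.73 to -0.43 along chromosome 6. They ran from -0.46 to -0.27 over the first 80 Mb of chromosome 14 and from -0.56 to -0.27 along chromosome 17. The shift was thus present in every stretch measured, while the rest of chromosome 14 had too few genes per stretch. All 3 libraries of the line concerned showed the shift. Copy number was not tested. Of the 1549 tested genes on these 3 chromosomes 46 were called higher (2.97%) and 354 lower (22.9%), and of the other 9902 tested genes 669 (6.76%) were higher and 1141 (11.5%) lower. HoxA genes, Smyd1, Mest, Tead4 and Ccnd2 lie on chromosome 6 and Dazl on chromosome 17. With values centred per chromosome, 788 genes were higher and 1233 lower, and Hoxa7, Hoxa11, Smyd1, Mest, Tead4, Ccnd2 and Dazl kept their calls.

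**Figure D5:**
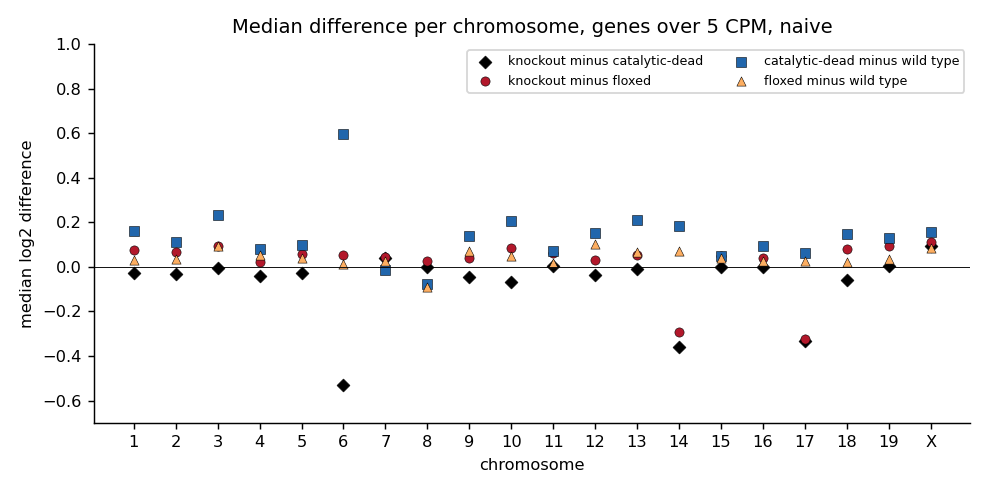
Median log2 difference over genes of more than 5 CPM on each chromosome, in naive cells, for knockout minus catalytic-dead (diamonds), knockout minus floxed (circles), catalytic-dead minus wild type (squares) and floxed minus wild type (triangles). Chromosome 6 stands out in catalytic-dead minus wild type (0.60), and chromosomes 14 and 17 in knockout minus floxed (-0.29 and -0.32).

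Small nucleolar RNA genes, which guide modification of ribosomal RNA and mostly lie in introns, included many that were lower in knockout cells. Of 93 tested genes 36 (38.7%) were called lower and none higher, against 13.1% lower and 6.24% higher of all tested genes. Leaving out single libraries gave 26 to 36 lower calls. The class had a median of -1.10 and was singled out after its values were seen. The median was -0.62 for floxed minus wild type, -0.31 for knockout minus floxed and 0.32 for catalytic-dead minus wild type. Over 96 genes with values in all 6 libraries the summed level was 363, 237 and 295 CPM in knockout and 450, 748 and 706 CPM in catalytic-dead libraries. The ranges did not overlap, though catalytic-dead library a was nearer to the knockout libraries. Snora41 had 7.91, 6.92 and 7.18 CPM in knockout and 33.6, 56.3 and 55.9 CPM in catalytic-dead libraries (-2.66, adjusted p = 6.88e-09), and Snord55 had 1.43, 0.532 and 1.24 against 12.7, 21.5 and 18.9 CPM (-3.86, adjusted p = 1.15e-08). Snord11 differed by -4.28. These RNAs have no poly(A) tail, reads from the host gene's unspliced RNA cannot be told apart from them, and RNA quality was not tested.

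In formative cells, measured in other libraries, the same 2 lines differed at a like number of genes. There 2159 of 11509 tested genes (18.8%) passed the threshold, 1154 higher (10.0%) and 1005 lower (8.73%) in knockout cells. With size factors there were 989 higher and 1095 lower, so which side is larger depends on the scaling. Of 10800 genes tested in both states, 226 were higher in both, which is 33.7% of the 671 naive calls and 22.7% of the 997 formative calls. Lower in both were 321, or 24.4% of 1315 and 33.1% of 969. In opposite directions were 14 that were higher in naive knockout cells and 75 that were lower there. Of the 5 HoxA genes tested in naive cells, 3 were called higher and none lower in formative cells. Of the 18 genes of the other clusters tested in naive cells, 11 were called higher and 1 lower there. The shares over all tested formative genes were 10.0% and 8.73%. Hoxc10 differed by 3.15, Hoxa9 by 4.04 and Tex13b, outside the clusters, by 4.32 in formative cells, all past the threshold. Genes of the 2-cell-like state were lower in formative cells too, with 8 called of the 9 tested in naive cells.

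The difference between states was itself past the threshold for 1015 of 10800 genes (9.4%), 292 higher (2.7%) and 723 lower (6.69%) in the naive comparison. The split moved to 375 higher of 945 with size factors and to 374 higher of 930 with values centred per chromosome. Of the 15 FGF and ERK genes tested in naive cells, 6 were called lower there and 5 were called higher in formative cells. Of all tested genes, 13.1% were lower in naive and 10.0% higher in formative knockout cells. Spry4 differed by -2.39 in naive and 1.34 in formative cells, a difference between states of -3.73 (SE 0.673, adjusted p = 0.000304), and Etv4 by -1.84 and 0.56 (difference -2.40, adjusted p = 5.83e-07). Nr0b1 also changed sides, at -1.82 and 1.6 (difference -3.42, adjusted p = 1.69e-05). Bcl11b differed by 3.76 in naive and 0.17 in formative cells (difference 3.59, adjusted p = 5.98e-07), Eomes by -3.40 and 0.86 (difference -4.26, adjusted p = 1.54e-06) and Fcgr2b by -5.36 and -0.44 (difference -4.92, adjusted p = 1.71e-06). For Fcgr2b, which is close to 0 in knockout libraries, the difference was -5.08 with a prior count of 0.5 and not past the threshold. For Hoxc10 the difference between states was not past the threshold (difference -0.59, SE 0.519, adjusted p = 0.542).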

How the data were processed

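Poly(A) RNA of 24 mouse samples (4 lines, 2 states, 3 samples each) was extracted with Trizol and sequenced with the QuantSeq 3' FWD kit, per the labels' protocols. The submitters' processing notes name cutadapt 2.5, STAR, featureCounts from Subread 1.6.4, DESeq2 1.34.0 and the build mm10. Whether counting used the strand is not stated there. The deposited table holds, for each of 8 groups, the mean log2 CPM of its libraries, a prior count of 2, adjusted to each library's size, having been added by the authors before the logarithm. This form was read from the values, since no header states it.

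Whole counts were sought that give each deposited mean, together with library sizes. Sizes came out within 0.00158 of whole numbers, and 23 distinct libraries and 1 left over summed to 234513119 counts. Of the naive wild-type group 2 libraries are in the table. A library of 6919314 counts entered both formative mutant columns and was kept with the catalytic-dead group. A gene's counts were accepted where under 0.3 chance solutions were to be had (0.02 in wider search windows). Counts recovered in this way carry no replicate numbers.

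Log2 CPM of the libraries were tested with limma 3.58.1 (R 4.3.3) in 1 model of 8 groups, with weights from a lowess trend (span 0.3), a trended prior and Benjamini-Hochberg adjustment over all genes tested. Genes needed the CPM of 10 counts at the median library size in at least 3 libraries. The threshold was an adjusted p of 0.05, and every adjusted p given is from this model or from a limma fit of the same kind. Genes without recovered counts have deposited means only. The procedure was tested on simulated counts, in which far fewer genes were changed than were called in the data. There 4 of 50 calls (8%) fell on unchanged genes. Calls were made for 5.66% of 53 tested genes changed 1.5-fold, 31.8% of 44 changed 2-fold and 85.3% of 34 changed 4-fold. Python 3.11.15, numpy 2.4.6, scipy 1.17.1, pandas 2.3.3, numba 0.67.0 and matplotlib 3.10.9 were used.

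Named genes are the 2 targets, the 12 largest calls in each direction of at least 10 CPM without overlap, the 5 largest untested differences in each direction, up to 4 called and 3 untested members of each list, and the 6 largest in each direction past both tests but not between floxed and wild-type cells. The lists and the comparison were chosen with earlier results of these data known. Chromosome medians, small nucleolar RNAs and the centring per chromosome were chosen after seeing the data. Alternatives were other weights, groups in the fit, scaling, filters and prior counts, and leaving out each library. Gene positions are from GENCODE vM21 and promoters from RefSeq, both GRCm38. A promoter was found for 11278 of 16617 genes. Precision covers the spread between libraries and the sampling of counts, and values of a few counts are the least precise. Some single genes are not reported here.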

Additional observations from a re-analysis of the deposited data

Results flagged for a closer look

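Named genes are given here where the knockout minus catalytic-dead difference in naive cells differed from that in formative cells by the test of that difference, as log2 values, naive minus formative. More negative in naive cells were Fcgr2b (-4.92), Khdc3 (-4.37), Eomes (-4.26), Spry4 (-3.73), Nr0b1 (-3.42), Gm40977 (-3.10), Gm10522 (-3.10), Smyd1 (-2.92), Rgs11 (-2.83), Inhbb (-2.83) and Snord55 (-2.73). Smaller negative values belonged to Calml4 (-2.70), Snora41 (-2.45), Etv1 (-2.42), Cdx1 (-2.40), Etv4 (-2.40), Gpa33 (-2.31), Trim63 (-2.23), Dazl (-1.96), Tead4 (-1.63), Ddx58 (-1.33) and Tcl1 (-1.12). More positive in naive cells were Lgr5 (4.30), Obox6 (4.27), Mal (3.90), Slc25a48 (3.78), Bcl11b (3.59), BC053393 (3.29), Krt14 (2.82), Slit2 (2.77), Wnt3 (2.60), Ccdc40 (2.60), Padi4 (2.29), Ephx1 (2.25) and Nlrp4c (2.11). Fcgr2b, Bcl11b, Wnt3, Slit2 and Eomes were past the threshold in naive and not in formative cells, and Spry4, Nr0b1, Etv1, Etv4 and Lgr5 were past it in both with opposite signs. The formative call of Etv4 was lost without some of the single libraries. That of Lgr5 was lost in 7 of 13 alternatives, among them no weights, the spread from the groups of the contrast alone and a prior count of 0.5. With a prior count of 0.5 the difference between states was no longer past the threshold for BC053393 (4.28), Calml4 (-2.67), Fcgr2b (-5.08), Gm10522 (-2.87), Gm40977 (-3.84), Gpa33 (-2.44), Inhbb (-3.40), Krt14 (3.45), Mal (4.39), Padi4 (2.16), Rgs11 (-3.34), Smyd1 (-2.77) and Trim63 (-3.49). It was lost without naive catalytic-dead library a for Nlrp4c (1.72) and Padi4 (2.17), without naive catalytic-dead library b for Krt14 (2.48), without naive knockout library a for Inhbb (-2.46), Rgs11 (-2.62) and Trim63 (-2.12), and without naive knockout library c for Gm40977 (-2.87), Gpa33 (-1.84) and Tcl1 (-1.06). Trim63, Gpa33, Padi4, Tcl1, Gm40977 and Rgs11 also lost it without other libraries. The formative knockout group holds the 3 libraries that no other column shares.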

How the results depend on the processing

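The number of genes that differed between naive knockout and catalytic-dead cells stayed within 1.5 times of 2210 under the 9 alternatives tried beside leaving out libraries, from 1624 of 5747 genes with a stricter filter to 2463 with the spread taken from the 2 groups alone. Leaving out 1 library at a time gave 1598 to 1838 genes, 523 to 598 of them higher and 1075 to 1277 lower. Of the 87 named genes past the threshold in this comparison, 80 stayed past it in every alternative and none changed direction. The exceptions were Kmt2d without knockout library c, Epcam with values centred per chromosome, and Col4a1, Dsp, Il6st, Lama1 and Tjp1 without some of the single libraries. Of these, Dsp, Il6st and Tjp1 also lost the call with the 4 naive groups alone, and Dsp and Il6st with the 2 groups alone. Floxed against wild-type cells depended on the model most, with 106 genes past the threshold when the spread came from these groups alone, and between 371 and 795 when single libraries were left out. Genes called the same way there and in the direct comparison numbered 63 with groups of the contrast alone and 164 to 247 with single libraries left out. The difference of the mutant effects gave 431 to 1094 genes with single libraries left out, the formative comparison 1525 to 1850 and the difference between states 703 to 978. The cause was not tested. Named genes past the threshold that stayed past it in every alternative were 15 of 32 between floxed and wild-type cells, 35 of 50 for the difference of mutant effects, 38 of 53 in formative cells and 20 of 35 between states, none reversed. No paired analysis was possible because the recovered library values carry no replicate numbers. Depth limits low genes: a catalytic-dead library of 6095600 counts gives few counts to a gene under 1 CPM, and genes too abundant for recovery had no test.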

Other observations

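Genes of cell adhesion and of the basement membrane, outside the programmes described above, were called in small numbers, against 6.24% higher and 13.1% lower among all tested genes. Of 14 tested cadherin and junction genes 1 was higher and 3 were lower in knockout cells (median 0.18 over 17 genes). The epithelial antigen gene Gpa33 had 1.36, 1.33 and 0.371 CPM in knockout and 12.3, 15.5 and 15.1 CPM in catalytic-dead libraries (-3.69, SE 0.459, adjusted p = 2.81e-07). Floxed and wild-type cells averaged 27.5 and 23.9 CPM, so the knockout level was the lowest of the 4 lines. The adhesion molecule gene Epcam, on chromosome 17, had 22.9, 25.4 and 21.5 CPM in knockout and 40.2, 39.3 and 38.9 CPM in catalytic-dead libraries (-0.76, adjusted p = 0.00244). Tjp1 of tight junctions differed by -0.75 and the desmosome gene Dsp by 0.58. Of 15 tested collagen and laminin genes 3 were higher and 3 lower (median -0.16 over 18 genes). The 3 higher ones belong to the basement membrane: Lama1, with 9.92, 10.3 and 6.81 CPM in knockout and 4.47, 3.8 and 2.3 CPM in catalytic-dead libraries (1.33, adjusted p = 0.00785), Col4a2, described above, and Col4a1 (0.66). Both type IV collagen genes were also higher in formative knockout cells (1.53 for Col4a1 and 1.15 for Col4a2). Several of these calls rest on single libraries or on the shift of a chromosome. Epcam differed by -0.44 with values centred per chromosome (adjusted p = 0.0847), and Lama1 by 1.07 without catalytic-dead library c (adjusted p = 0.0666). Col4a1 differed by 0.51 without knockout library c (adjusted p = 0.136), Dsp by 0.48 without knockout library a (adjusted p = 0.153) and Tjp1 by -0.64 without catalytic-dead library c (adjusted p = 0.113), each also losing its call without other libraries, and Dsp and Tjp1 with the 4 naive groups alone in the fit. Dsp lost it too with the spread from the 2 groups alone (adjusted p = 0.052).

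In the LIF and STAT3 list 1 of 4 tested genes was higher, the receptor subunit gene Il6st with 29.7, 28.3 and 35 CPM in knockout and 15.9, 27.4 and 21.8 CPM in catalytic-dead libraries (0.54, adjusted p = 0.0327). Its groups nearly met, and without catalytic-dead library a the difference was 0.33 (adjusted p = 0.287). The call was also lost with the spread from the 2 groups alone (adjusted p = 0.0749). The H3K4 and H3K27 demethylases had no call in their 1 tested gene, and their median was -0.55 over 7 genes. Of 4 tested housekeeping genes 1 was lower (median -0.02), and of 5 tested Y-linked and X-inactivation genes 1 was higher. Of all tested genes 6.24% were higher and 13.1% lower.

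By annotated gene type, protein-coding genes were called higher in 7.14% and lower in 14.4% of 8534 tested genes, and lincRNA genes in 5.7% and 13.8% of 491. Processed pseudogenes were called higher in 1.86% and lower in 6.51% of 753, a difference between gene types that was not tested.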
